A study of Homo sapiens with 8 samples.

Results

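The genes described here are 8 genes of lipoprotein assembly and secretion: the structural apolipoproteins APOB, APOA1, APOA2 and APOA4, the regulatory apolipoproteins APOC3 and APOE, the lipocalin APOM and the lipid transfer protein MTTP. Every probe set that named only one of them in the array annotation was taken, which gave 16 of the 54675 probe sets on the array. Each gene was represented by whichever of its probe sets was brightest on average over the 8 arrays, and the 8 genes were among 19775 genes with a probe set of their own. A gene was tested where at least 2 arrays lay above the median signal of that array. All 8 passed, among 14079 tested genes. At the level of single probe sets 14 of the 16 passed, and a dim probe set each of APOB and APOC3 did not.

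The RNA came from human embryonic stem cells that the labels name as H9, an established line, grown in mTeSR medium. The 4 groups, with 2 arrays each, were embryoid bodies given 20 mM ethanol, embryoid bodies at 0 mM, undifferentiated cells given 20 mM ethanol and undifferentiated cells at 0 mM, the exposure lasting 24 h. Embryoid bodies are suspended clumps of stem cells that differentiate into many cell types, so each array measured a mixture, in which fewer cells of a type and less RNA per cell cannot be told apart. The labels call the arrays duplicates and do not say that they were separate cultures, so p-values measure the spread between these samples only.

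A check against the labelled cell line failed for 4 of the 8 arrays, and these 4 were all of 1 of the 2 stages. Stage and cell line therefore cannot be told apart in the comparisons of stage, whereas each ethanol comparison lay within a stage. Every array had the same trimmed mean signal, 500 to 500.1, but the median signals were 102 on both arrays of embryoid bodies with ethanol and 83.2 to 85.1 on those without, and 74.1 to 79.4 in undifferentiated cells with ethanol and 69.2 to 70.8 in those without. In embryoid bodies the median log2 ethanol change was 0.33 in the dimmest decile of the tested genes by signal and -0.08 in the brightest. Changes of members in embryoid bodies are therefore set beside the median of their own decile. In undifferentiated cells the medians were 0.13 in the dimmest decile and -0.02 in the brightest. All 9 measured markers of pluripotent cells were above the array median in every group, with summed signals of 69538 to 72619 in embryoid bodies with ethanol, 79908 to 82321 in embryoid bodies without, 105247 to 112024 in undifferentiated cells with ethanol and 102640 to 106999 in those without.

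Apolipoproteins coat lipid droplets so that they can travel in blood and bind receptors and enzymes. APOB is the non-exchangeable scaffold of very low density lipoproteins and chylomicrons, and MTTP, an endoplasmic reticulum protein, loads lipid onto it while it is being made. The APOA proteins are the main proteins of high density lipoproteins, APOC3 inhibits lipoprotein lipase, APOE is the ligand by which remnant particles are taken up, and APOM carries sphingosine 1-phosphate. In the adult these genes are used mainly by liver and intestine. In the embryo the visceral endoderm of the yolk sac secretes lipoproteins before the liver does, which in mice requires Apob and Mttp.

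All 8 genes had a higher mean signal in embryoid bodies than in undifferentiated cells at both doses, and the size of the gap divided them into 2 groups. The means of APOB, MTTP, APOA1, APOA2, APOA4 and APOC3 ranged from 204.2 to 13964 in embryoid bodies and from 10.84 to 251.2 in undifferentiated cells. APOE and APOM had signal well above the array medians at both stages and a smaller gap. The split is less clear for APOC3, whose undifferentiated arrays lay under their medians. With those arrays at their medians its gap was at least 2.92-fold at 0 mM and at least 4.79-fold at 20 mM, beside 1.68-fold and 2.24-fold for APOM.

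APOB read 5370 and 5129 in embryoid bodies with ethanol, 3311 and 3467 in embryoid bodies without, 58.9 and 67.6 in undifferentiated cells with ethanol and 53.7 and 93.3 in those without. The 4 arrays of embryoid bodies were far above all 4 arrays of undifferentiated cells, where only 1 array, at 0 mM, exceeded its array's median. The filter needed 2 arrays, so a higher value in embryoid bodies was a condition of APOB being tested. At 0 mM the log2 difference between embryoid bodies and undifferentiated cells was 5.58 ± 0.25 (SE of the fit over all 8 arrays, 2 arrays per group), a 47.9-fold higher signal with a limma adjusted p of 6.59e-05. At 20 mM both undifferentiated arrays were under the median, and the signal in embryoid bodies was at least 68.4-fold higher, counting the undifferentiated arrays at their medians. The fit to the signals as read, not to this bound, gave an adjusted p of 3.8e-05.

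MTTP, the partner that lipidates APOB, read 741 and 759 in embryoid bodies with ethanol, 501 and 525 in embryoid bodies without, 26.3 and 26.3 in undifferentiated cells with ethanol and 38 and 17.8 in those without. No undifferentiated array was above its median. With the undifferentiated arrays at their medians, the signal in embryoid bodies was at least 7.33-fold higher at 0 mM and at least 9.77-fold higher at 20 mM. The fit to the signals as read, not to these bounds, gave limma adjusted p of 0.000324 and 0.000193.

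APOA1, the main protein of high density lipoproteins, read 11749 and 11220 in embryoid bodies with ethanol, 11482 and 10965 in embryoid bodies without, 110 and 158 in undifferentiated cells with ethanol and 148 and 200 in those without. APOA2, which shares those particles with it, read 14125 and 13804 in embryoid bodies with ethanol, 13183 and 12882 in embryoid bodies without, 275 and 229 in undifferentiated cells with ethanol and 240 and 204 in those without. In embryoid bodies both probe sets ranked at percentile 98.9 or above among all probe sets in each dose group. At 0 mM the log2 difference between the stages was 6.03 ± 0.21 for APOA1 and 5.88 ± 0.12 for APOA2, which are 65.3-fold and 58.9-fold higher signals (limma adjusted p 3.23e-05 and 8.36e-06). At 20 mM the folds were 87.1 for APOA1 and 55.6 for APOA2 (adjusted p 2.35e-05 and 7.96e-06).

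APOA4, an apolipoprotein of intestinal chylomicrons, read 741 and 759 in embryoid bodies with ethanol, 525 and 407 in embryoid bodies without, 14.5 and 18.6 in undifferentiated cells with ethanol and 33.1 and 9.55 in those without. APOC3 read 347 and 389 in embryoid bodies with ethanol, 209 and 200 in embryoid bodies without, 16.2 and 7.24 in undifferentiated cells with ethanol and 7.76 and 33.1 in those without. In both genes every undifferentiated array was under its median and every array of embryoid bodies was above it. With the undifferentiated arrays at their medians, the signal of APOA4 in embryoid bodies was at least 6.61-fold higher at 0 mM and at least 9.77-fold higher at 20 mM. That of APOC3 was at least 2.92-fold and at least 4.79-fold higher. The fit to the signals as read, not to these bounds, gave limma adjusted p of 0.00128 and 0.000633 for APOA4 and 0.00734 and 0.00193 for APOC3. APOA4, APOC3 and MTTP passed the filter through the arrays of embryoid bodies alone, so a higher value there was a condition of their being tested.

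**Figure D1:**
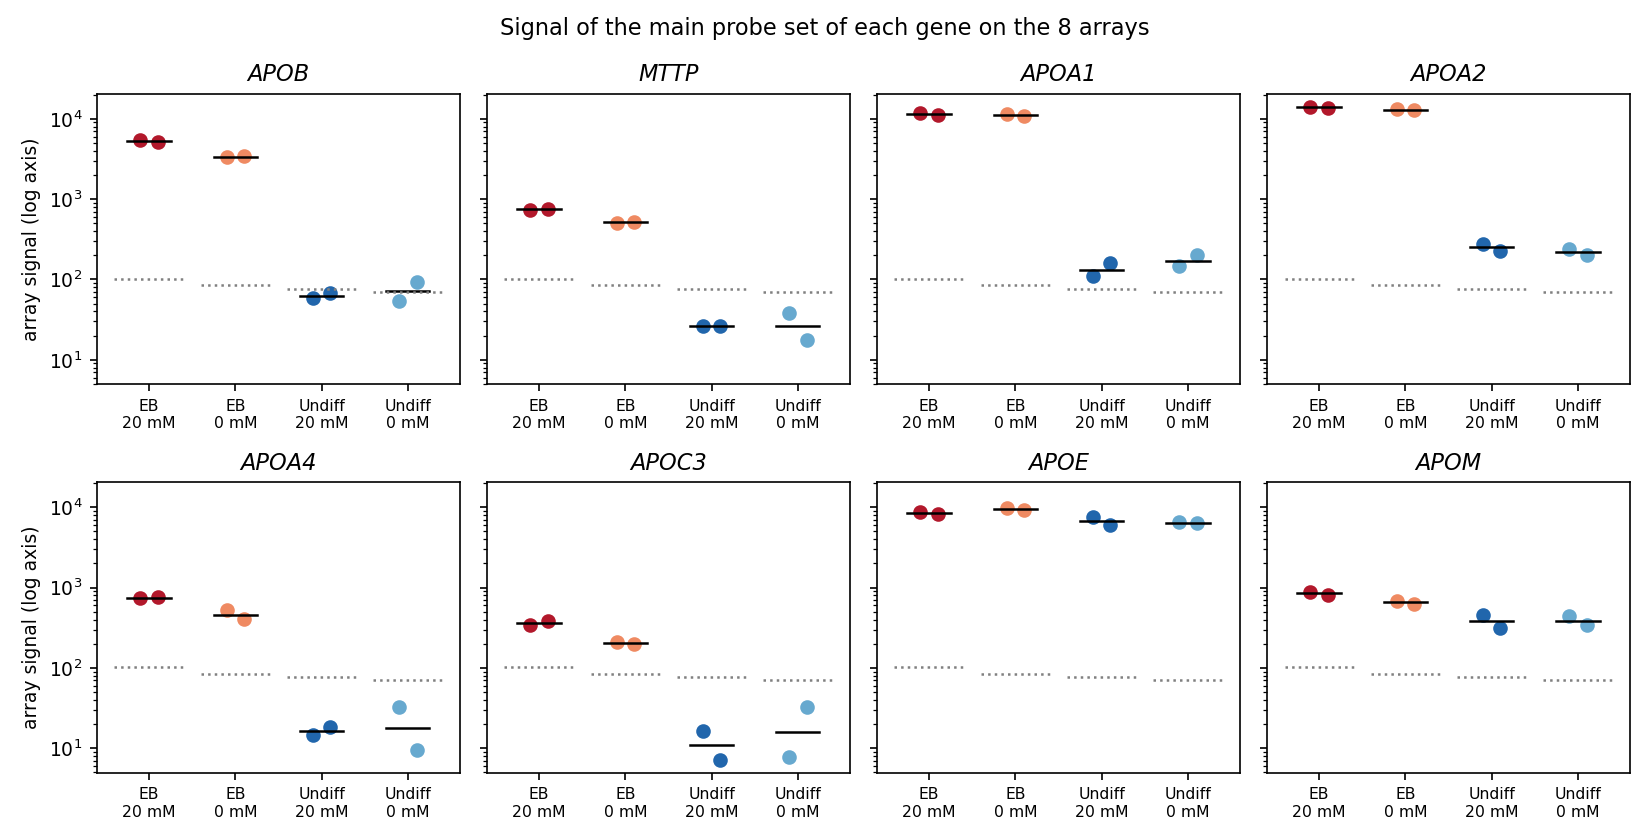
Array signal (log axis, arbitrary units) of the main probe set of each gene, with a point per array, a bar at the mean of the 2 arrays on the log scale and a dotted line at the mean of the array medians of the group. APOB, MTTP, APOA1, APOA2, APOA4 and APOC3 lie far higher in embryoid bodies (EB) than in undifferentiated cells (Undiff), while APOE and APOM have signal at both stages, and within embryoid bodies APOB, MTTP, APOA4, APOC3 and APOM sit higher at 20 mM than at 0 mM.

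APOE had high signal at both stages. It read 8710 and 8318 in embryoid bodies with ethanol, 9772 and 9120 in embryoid bodies without, 7586 and 6026 in undifferentiated cells with ethanol and 6607 and 6310 in those without. The log2 difference between the stages was 0.55 ± 0.12 at 0 mM (1.46-fold, limma adjusted p 0.0123) and 0.33 ± 0.12 at 20 mM (1.26-fold, adjusted p 0.0607), so for this probe set the difference at 0 mM passed the test and that at 20 mM did not. The other APOE probe sets were called at both doses over the probe sets, 203382_s_at with 0.60 ± 0.17 at 0 mM and 0.55 ± 0.17 at 20 mM (adjusted p 0.0293 and 0.0359) and 212884_x_at with 0.71 ± 0.17 and 0.58 ± 0.17 (adjusted p 0.0184 and 0.0336). The call of the main probe set at 0 mM was lost without replicate B of the undifferentiated cells at 0 mM (0.51, adjusted p 0.0572) and without replicate A of the embryoid bodies at 0 mM (0.50, adjusted p 0.0662), and with the arrays centred on their medians (0.28, adjusted p 0.0586). At 20 mM it was gained without replicate A of the undifferentiated cells with ethanol (0.50, adjusted p 0.0104), and the sign turned with the arrays centred on their medians (-0.08).

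APOM, which sits outside the APOA and APOC families, read 891 and 813 in embryoid bodies with ethanol, 676 and 631 in embryoid bodies without, 457 and 316 in undifferentiated cells with ethanol and 437 and 347 in those without. All arrays of embryoid bodies were above all arrays of undifferentiated cells. The log2 difference was 0.75 ± 0.20 at 0 mM (1.68-fold, limma adjusted p 0.0233) and 1.16 ± 0.20 at 20 mM (2.24-fold, adjusted p 0.00425). The call at 0 mM was lost without replicate B of the undifferentiated cells (0.58, adjusted p 0.108) and without replicate A or B of the embryoid bodies (0.70 and 0.80, adjusted p 0.0987 and 0.0727), as well as under quantile normalisation (0.57, adjusted p 0.0562) and median centring (0.48, adjusted p 0.0629).

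APOA4, APOC3 and MTTP could be tested only because they were higher in embryoid bodies. The same held for APOB, as only 1 undifferentiated array exceeded its median where the filter needed 2. With APOA4, APOC3 and MTTP left out, 5 of 5 were called higher in embryoid bodies at 0 mM, beside 28% of all tested genes. At 20 mM 4 were called higher, beside 29.2%. Each of these counts includes APOB. With APOA4, APOC3, MTTP and, at 20 mM, APOB at their bounds, the median log2 difference of the 8 genes was 2.80 at 0 mM and 3.29 at 20 mM. The same undifferentiated or embryoid body arrays serve all members, so the counts are not independent.

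The probe sets of a gene agreed on the stage where they were bright. A second APOA1 probe set, 217073_x_at, read 11749 and 10471 in embryoid bodies with ethanol, 11482 and 10715 in embryoid bodies without, 97.7 and 95.5 in undifferentiated cells with ethanol and 151 and 155 in those without. The third, 231694_at, was far dimmer, at 191 and 178 in embryoid bodies with ethanol, 141 and 110 in embryoid bodies without, 70.8 and 12.9 in undifferentiated cells with ethanol and 49 and 10.2 in those without. It passed the filter through the arrays of embryoid bodies alone, and the stage difference at 0 mM, at least 1.78-fold with the undifferentiated arrays at their medians, did not pass the test over 25802 probe sets (limma adjusted p 0.087). The dim APOB probe set, 223579_s_at, followed the order of the bright one, with 63.1 and 64.6 in embryoid bodies with ethanol, 24.5 and 29.5 in embryoid bodies without, 2.75 and 3.39 in undifferentiated cells with ethanol and 13.5 and 4.68 in those without, all under the array medians. The dim APOC3 probe set, 231587_at, did not, with 13.5 and 10.2 in embryoid bodies with ethanol, 17 and 4.27 in embryoid bodies without, 25.7 and 22.9 in undifferentiated cells with ethanol and 28.2 and 10 in those without. The suffixes _x_at and _s_at mark probe sets that can bind transcripts of more than one gene or form. Without them APOB, APOC3, APOE and APOM had no tested probe set, and APOA2, APOA4 and MTTP were called at both doses.

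The members lie on 6 chromosomes. In the RefSeq annotation APOA4, APOC3 and APOA1 follow each other on chromosome 11, next to APOA5, and APOE is followed by APOC1 on chromosome 19, while APOA2, APOB, MTTP and APOM lie on chromosomes 1, 2, 4 and 6. APOA5, which lies in the chromosome 11 cluster, was under the array median on every array. APOC1, the neighbour of APOE, behaved like APOE in part, with mean signals of 6531 in embryoid bodies with ethanol, 6839 in embryoid bodies without, 1950 in undifferentiated cells with ethanol and 2399 in those without. Its log2 stage difference at 0 mM was 1.51 ± 0.07 (limma adjusted p 6.66e-05).

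RefSeq promoter windows on GRCh38.p14, from 250 bases before to 50 bases after a start, were at hand for 5 of the 8 genes, in 8 windows. They were searched on both strands for the nuclear receptor core hexamers AGGTCA and GGGTCA, the forkhead motif GTAAACA, the GATA motif AGATAA and the TATA motif TATAAA. The stretches below, from 150 bases before the start to 10 bases from the start on, are shown because MTTP, APOM and APOA4 were among the genes whose signal in embryoid bodies did not overlap between the doses, as was APOA2 by a small margin. Each is written 5′ to 3′ in the direction of the gene, on the plus strand for MTTP and APOM and on the minus strand for APOA4 and APOA2, and capitals mark a motif on either strand.
MTTP, chr4:99574674-99574833: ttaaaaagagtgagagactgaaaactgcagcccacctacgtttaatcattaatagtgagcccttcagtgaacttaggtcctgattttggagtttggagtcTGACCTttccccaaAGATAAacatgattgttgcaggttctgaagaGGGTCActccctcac
APOM, chr6:31655744-31655903: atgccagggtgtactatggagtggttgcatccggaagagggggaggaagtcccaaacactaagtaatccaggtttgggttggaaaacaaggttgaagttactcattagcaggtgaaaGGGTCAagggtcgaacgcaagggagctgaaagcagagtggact
APOA4, chr11:116823295-116823454: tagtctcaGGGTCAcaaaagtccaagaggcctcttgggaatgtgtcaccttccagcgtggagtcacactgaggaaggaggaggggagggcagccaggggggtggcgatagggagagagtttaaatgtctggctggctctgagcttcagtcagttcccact
APOA2, chr1:161223619-161223778: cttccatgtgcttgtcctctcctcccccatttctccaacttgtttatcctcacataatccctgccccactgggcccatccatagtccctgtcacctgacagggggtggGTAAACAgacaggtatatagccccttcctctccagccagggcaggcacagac
In this MTTP window, 1 of 2 for the gene, AGGTCA was read on the other strand 50 bases before the start, AGATAA 36 bases before it and GGGTCA 5 bases before it, and outside the stretch shown TATAAA was read on the other strand 227 bases before the start. APOM held GGGTCA 33 bases before its start, and APOA4 held it 142 bases before its start. APOA2 held GTAAACA 42 bases before the start and AGATAA 37 bases after it. Of 3 APOE windows, 1 held AGATAA 8 bases after the start and none held another motif. Over all 35116 windows of this length the motifs were present in 13.8% (AGGTCA), 14.1% (GGGTCA), 3.42% (GTAAACA), 10.3% (AGATAA) and 11.5% (TATAAA), and a match is a run of letters only. The letters of these motifs overlap nowhere in the 4 windows shown.

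The study asked what 24 h of 20 mM ethanol changes in such cells. In embryoid bodies the signal of 7 of the 8 genes was higher with ethanol and that of APOE was lower, but no change passed the test over all genes. The estimates were 1.55-fold for APOB, 1.46-fold for MTTP, 1.62-fold for APOA4, 1.8-fold for APOC3 and 1.3-fold for APOM, against 1.02-fold for APOA1 and 1.07-fold for APOA2. Over all genes 10 were called, 0.071% of those tested, and none of the 8 was among them, while 3137 genes had an unadjusted p under 0.05.

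APOB averaged 5248 in embryoid bodies with ethanol and 3388 in those without, and its arrays, listed above, did not overlap. The log2 change was 0.63 ± 0.25 (95% interval 0.01 to 1.25, limma p 0.0464, adjusted p 0.217). Of all tested genes 11.9% were higher at an unadjusted p under 0.05, and APOB was the only one of the 8. Genes in the same decile of signal had a median log2 change of -0.08. The dim APOB probe set did not overlap between the doses either, at 63.1 and 64.6 with ethanol against 24.5 and 29.5 without, but it lay under the array medians. With only the 4 arrays of embryoid bodies in the fit, the change of APOB had an adjusted p of 0.114.

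MTTP averaged 749.9 with ethanol and 512.9 without, again without overlap between the arrays. The log2 change was 0.55 ± 0.33 (95% interval -0.26 to 1.36, limma adjusted p 0.372), in a decile of signal whose median change was 0.02. The undifferentiated arrays, which share the estimate of the spread, read 38 and 17.8 at 0 mM. Without either of those 2 arrays the change had an adjusted p of 0.0936, and with only the 4 arrays of embryoid bodies in the fit it had an adjusted p of 0.114.

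APOA4 averaged 749.9 with ethanol and 462.4 without. Its log2 change was 0.70 ± 0.55 (95% interval -0.66 to 2.06, limma adjusted p 0.501). APOC3 averaged 367.3 with ethanol and 204.2 without, a log2 change of 0.85 ± 0.71 (95% interval -0.90 to 2.59, adjusted p 0.524). Neither gene's arrays overlapped between the doses, and the median log2 changes of their deciles were 0.02 for APOA4 and 0.10 for APOC3. With only the 4 arrays of embryoid bodies in the fit, the adjusted p was 0.127 for APOA4 and 0.114 for APOC3.

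APOA1 and APOA2 had the estimates closest to 0, in a decile of signal whose median log2 change was -0.08. APOA1 averaged 11482 with ethanol and 11220 without, with overlapping arrays and a log2 change of 0.03 ± 0.21 (95% interval -0.49 to 0.56, limma adjusted p 0.941). Its second bright probe set gave 0.00 ± 0.09 and its dim one 0.56 ± 0.99 (adjusted p 0.797 over the probe sets). APOA2 averaged 13964 with ethanol and 13032 without, without overlap, and its log2 change was 0.10 ± 0.12 (95% interval -0.20 to 0.40, adjusted p 0.668). Its other probe set, 219465_at, read 10471 and 10233 with ethanol against 10233 and 9772 without, a change of 0.05 ± 0.14. With the arrays centred on their medians the changes of APOA1 and APOA2 turned to -0.25 and -0.18.

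Of 461 other tested genes with a mean signal of at least 9441 in embryoid bodies without ethanol, the mean of APOE there, 34 (7.38%) were higher with ethanol without overlap and 302 were lower. Their median log2 change was -0.13, and only 1 of them, COL1A1 at 0.55, had a change of at least 0.5. A change of at least 0.5 was therefore rare among these genes. COL3A1, just under the cut at 8913 without ethanol, averaged 17179 with it, a log2 change of 0.95. The part of brightness in the values of APOA1 and APOA2 was not tested.

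APOE averaged 8511 with ethanol and 9441 without, and its arrays did not overlap, with the lower values at 20 mM. The log2 change was -0.15 ± 0.12 (95% interval -0.45 to 0.15, limma adjusted p 0.513), beside a median of -0.08 for its decile. Its other probe sets overlapped between the doses, with changes of -0.13 ± 0.17 for 203382_s_at and -0.23 ± 0.17 for 212884_x_at. APOE was called lower in 1 setting, with the arrays centred on their medians (-0.43, adjusted p 0.0296), where the median of all tested genes was -0.27.

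APOM averaged 851.1 with ethanol and 653.1 without, without overlap. The log2 change was 0.38 ± 0.20 (95% interval -0.11 to 0.87, limma adjusted p 0.314), in a decile whose median was -0.02. The other APOM probe set, 214910_s_at, read 955 and 933 with ethanol against 692 and 741 without, with a log2 change of 0.40 ± 0.15 (unadjusted p 0.0415, adjusted p 0.25). The 2 probe sets of APOM therefore gave nearly the same estimate.

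**Figure D2:**
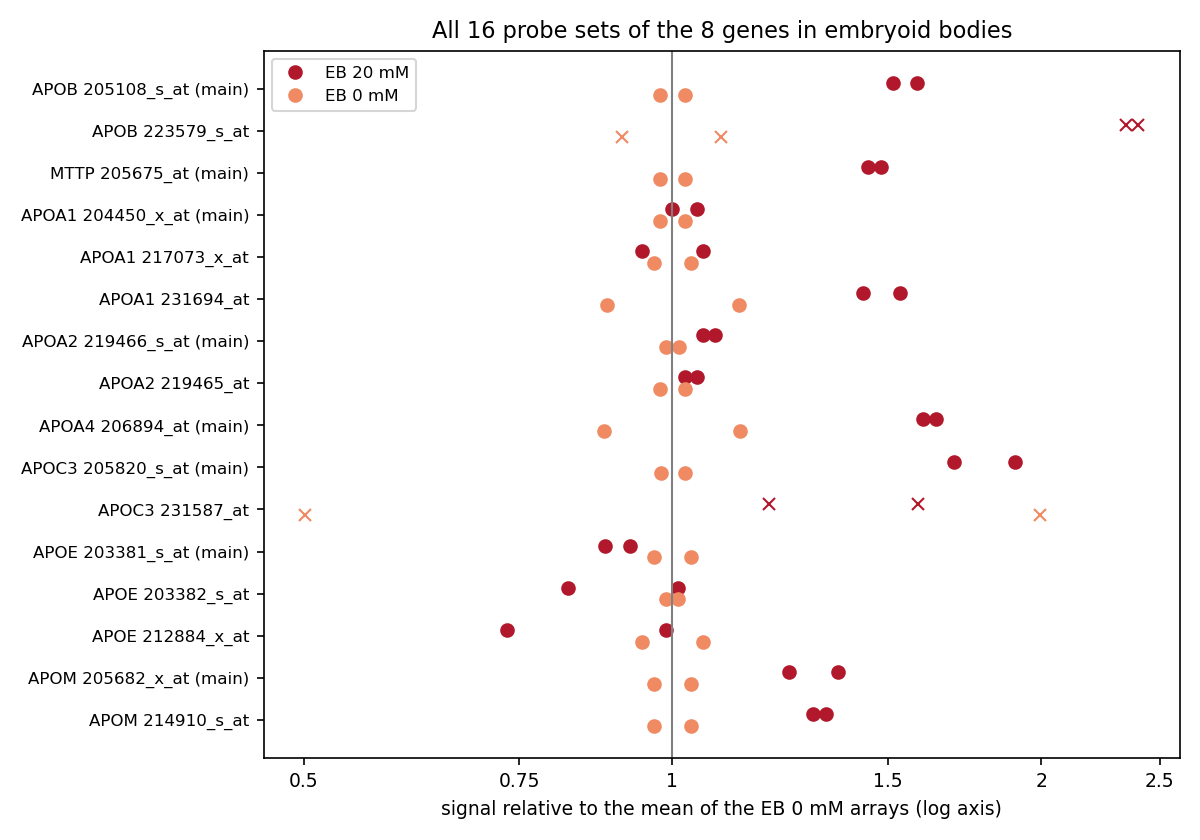
Signal of each of the 16 probe sets on the 4 arrays of embryoid bodies, divided by the mean of the 2 arrays at 0 mM (log axis), with ethanol in dark red and without in orange, and crosses for the 2 probe sets that did not pass the filter. The arrays with ethanol lie to the right without overlap for both probe sets of APOB and of APOM and for MTTP, APOA4 and the bright APOC3 probe set, while those of APOA1 204450_x_at and 217073_x_at overlap the arrays without ethanol.

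By arrays that did not overlap, 6 of the 8 genes (APOA2, APOA4, APOB, APOC3, APOM and MTTP) were higher with ethanol, beside 29.4% of all tested genes. The median log2 change of the 8 genes was 0.47, against 0.02 over all tested genes, of which 50.3% were above 0. The 5 genes APOB, MTTP, APOA4, APOC3 and APOM stayed above 0 under every alternative that gave a value, with changes of 0.35 to 0.94 for APOB, 0.27 to 0.58 for MTTP, 0.42 to 0.88 for APOA4, 0.51 to 0.93 for APOC3 and 0.10 to 0.45 for APOM. None of these values was called, and the lowest adjusted p over the alternatives was 0.082 for APOB, 0.0857 for MTTP, 0.1 for APOA4, 0.084 for APOC3 and 0.125 for APOM.

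**Figure D3:**
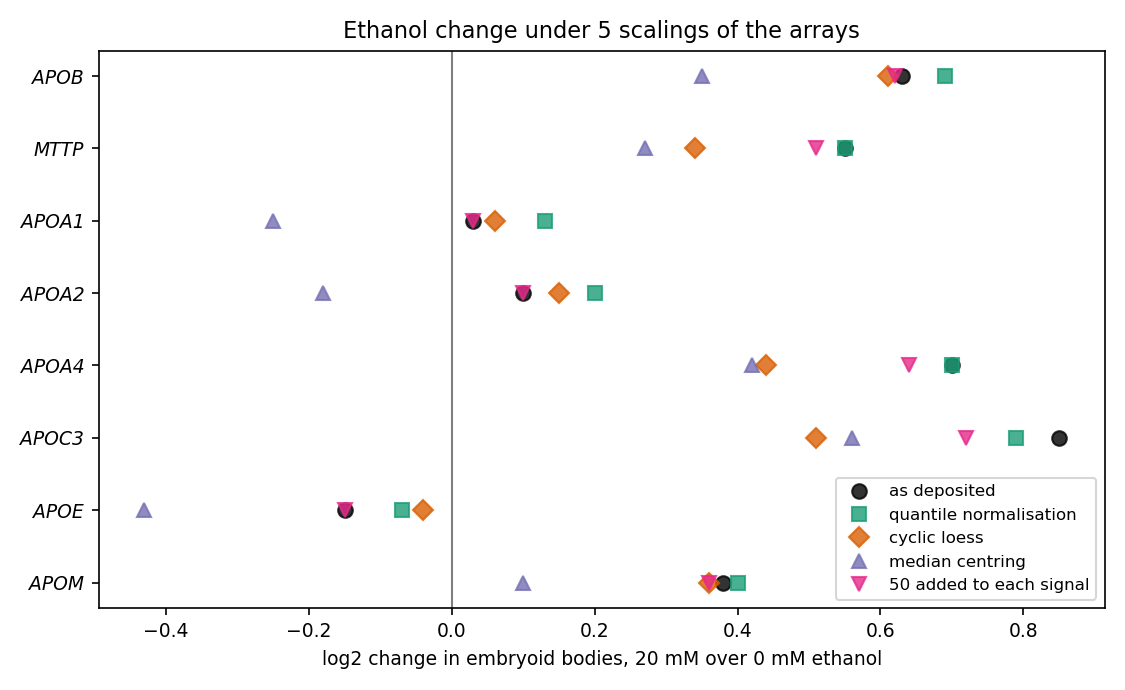
Log2 ethanol change in embryoid bodies, 20 mM over 0 mM, of each gene under 5 scalings of the arrays, with the deposited scaling as a black circle. APOB, MTTP, APOA4, APOC3 and APOM stay above 0 under all 5, and centring on the array medians moves every gene down and puts APOA1 and APOA2 below 0, at -0.25 and -0.18.

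In undifferentiated cells no member showed a change that passed the test, where 1 gene, 0.0071% of those tested, was called and 986 had an unadjusted p under 0.05. The arrays of the 2 doses overlapped for all 8 main probe sets, so 0 were higher and 0 lower without overlap, beside 15.4% and 12.1% of all tested genes. MTTP, APOA4 and APOC3 were under the array median on all 4 arrays, so no change could be measured for them at this stage. APOB, near or under the median, gave a log2 change of -0.17 ± 0.25 (limma adjusted p 0.955). APOE, which was bright here too, gave 0.07 ± 0.12 (95% interval -0.23 to 0.37, adjusted p 0.975), and APOM gave -0.03 ± 0.20 (95% interval -0.53 to 0.46, adjusted p 0.98). APOA1 gave -0.38 ± 0.21 (adjusted p 0.804). Its second probe set, 217073_x_at, at 97.7 and 95.5 with ethanol against 151 and 155 without, gave -0.66 ± 0.09 with an unadjusted p of 0.000398 and an adjusted p of 0.263 over the probe sets. APOA2 gave 0.18 ± 0.12 (adjusted p 0.85).

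**Figure D4:**
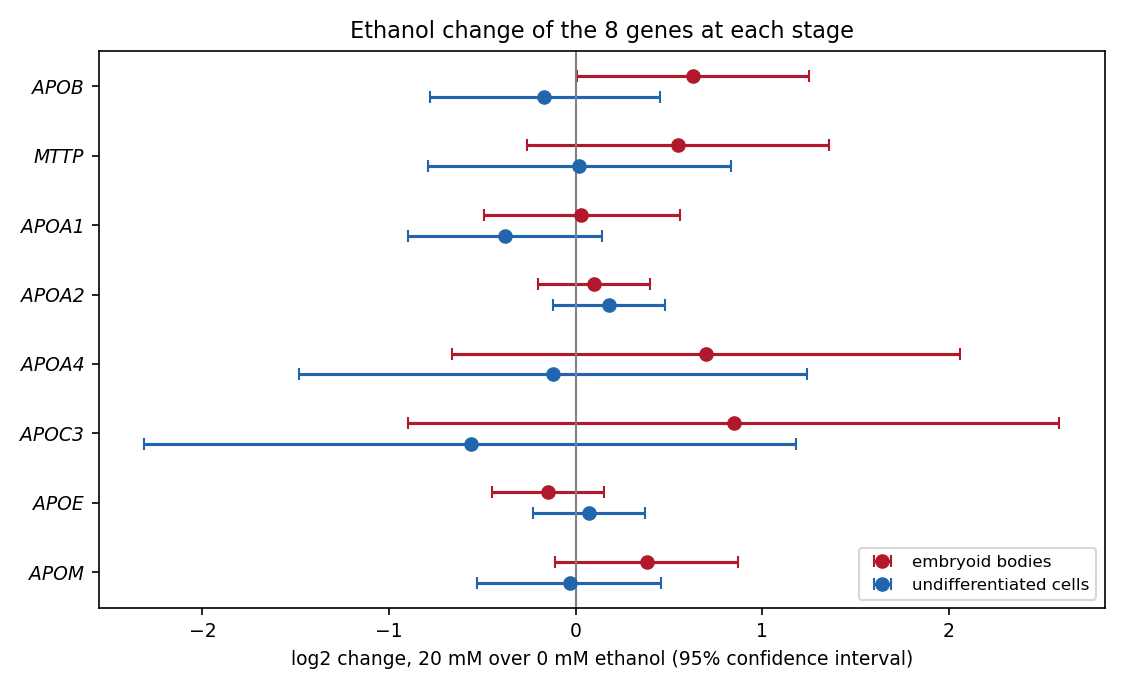
Log2 ethanol change of each gene, 20 mM over 0 mM, with its 95% confidence interval from the fit over all 8 arrays, in embryoid bodies (red) and in undifferentiated cells (blue). The intervals of APOA4, APOC3 and MTTP are wide, and their values in undifferentiated cells rest on signals under the array median. That of APOB in undifferentiated cells does so on all but 1 array. The interval of APOB in embryoid bodies, 0.01 to 1.25, alone leaves out 0.

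The difference between the ethanol changes of the 2 stages was tested in the same fit. No gene was called, 0% of those tested, although 1828 had an unadjusted p under 0.05 and 31 were called with a trended and robust variance. APOB had a difference of 0.80 ± 0.35 (embryoid bodies minus undifferentiated cells, log2, 95% interval -0.08 to 1.67, limma p 0.0666, adjusted p 0.404). The differences were 0.53 ± 0.46 for MTTP, 0.81 ± 0.78 for APOA4, 1.41 for APOC3 (95% interval -1.05 to 3.88) and 0.42 ± 0.28 for APOM, each with an interval that held 0. So did those of APOA1 (0.42 ± 0.30), APOA2 (-0.08 ± 0.17) and APOE (-0.22 ± 0.17). The second APOA1 probe set, 217073_x_at, gave 0.66 ± 0.13, with a 95% interval of 0.34 to 0.98 that left out 0. It was not called (limma p 0.00236, adjusted p 0.311 over the probe sets). For MTTP, APOA4 and APOC3 the undifferentiated side of this difference lay under the array median, so it is not a measured difference between the stages. For APOB only 1 undifferentiated array, at 0 mM, exceeded its median, so its difference also rests largely on signals under the median. The ethanol changes in embryoid bodies were therefore not shown to differ from those in undifferentiated cells.

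Other genes of the pathway were read from lists of known members. Of 17 other apolipoproteins 6 were tested, with 2 changes above 0 in embryoid bodies with ethanol, 3 below, 1 equal to 0 and a median of -0.03. None was called, and APOO, which encodes a mitochondrial protein, had the smallest p (-0.40 ± 0.14, limma adjusted p 0.18). APOC1, carried on the same particles as APOE, gave -0.07 ± 0.07 (adjusted p 0.609), and clusterin, CLU, gave -0.08 ± 0.21 (adjusted p 0.856).

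The secretory machinery that carries lipoproteins out of the endoplasmic reticulum was represented by 19 tested genes of 20, of which 10 were above 0 with ethanol in embryoid bodies, 7 below, 2 equal to 0 and none called, with a median of 0.03. MIA2, which helps load large cargo into transport vesicles, averaged 216 with ethanol and 107 without (log2 change 1.01 ± 0.19, limma adjusted p 0.0901). SEC24D and SEC23B, subunits of the inner coat of those vesicles, gave 0.55 ± 0.12 and 0.37 ± 0.08 (adjusted p 0.102 for each). VAMP7, next by p, was lower with ethanol (-0.23 ± 0.08, adjusted p 0.168). SAR1B, the GTPase that starts the coat, averaged 2427 with ethanol and 2065 without (0.23 ± 0.08, adjusted p 0.178). P4HB, the subunit that MTTP needs to be soluble, was equal at 12735 with and without ethanol. P4HB was higher in embryoid bodies, with a log2 difference of 0.71 ± 0.07 at 0 mM (adjusted p 0.000761), among 9 genes of this list called higher and 4 called lower in embryoid bodies. Of all tested genes 28% were called higher at that dose. PRAP1 and PLA2G12B, among those called higher, were under the median on every undifferentiated array, so a higher value in embryoid bodies was a condition of their being tested. CIDEB, also called higher, was under the median on both undifferentiated arrays with ethanol. Its mean of 58.9 in those without was below both array medians. It could not reach the 2 arrays of the filter without embryoid bodies, so the same condition held for it.

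Of 25 genes that supply triglyceride and phospholipid 19 were tested, and in embryoid bodies with ethanol 11 were above 0, 8 below and none called, with a median of 0.03 and no unadjusted p under 0.05. The acyltransferase GPAM gave 0.17 ± 0.07 (limma adjusted p 0.224) and DGAT2, which makes triglyceride, 0.37 ± 0.17 (adjusted p 0.282). The thiolase ACAT2, second by p, was lower with ethanol (-0.27 ± 0.12, adjusted p 0.256). With stage, SOAT1, which esterifies cholesterol, and DGAT1 were higher in embryoid bodies at 0 mM, by 2.13 ± 0.11 and 1.61 ± 0.14 (adjusted p 0.000108 and 0.000442). ACAT2 was lower there (-1.51 ± 0.12, adjusted p 0.000348).

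On the receiving side, 18 of 30 receptors, lipases and transfer proteins were tested, with 12 above 0 in embryoid bodies with ethanol, 5 below, 1 equal to 0 and none called, with a median of 0.17. The cholesterol exporters ABCG1 and ABCA1, which lipidate high density lipoproteins, gave 1.06 ± 0.14 and 0.91 ± 0.18 (limma adjusted p 0.0609 and 0.0917). ABCA1 averaged 2985 with ethanol and 1585 without. ABCG1 averaged 188 with ethanol and 90.2 without, the latter near the array medians of 83.2 and 85.1. Megalin, LRP2, an endocytic receptor of yolk sac and kidney, gave 0.40 ± 0.13 (adjusted p 0.161), and the scavenger receptor STAB1 gave -1.48 ± 0.28 (adjusted p 0.0901) at signals of 35.1 with ethanol and 97.7 without, near or under the array medians. At 0 mM LRP2 and ABCA1 were higher in embryoid bodies, by 2.56 ± 0.13 and 2.94 ± 0.18 (adjusted p 9.18e-05 and 0.000161). VLDLR and ABCG1 were lower there (-2.23 ± 0.14 and -1.11 ± 0.14, adjusted p 0.000176 and 0.0016).

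Of 27 transcription factors known to act on lipoprotein genes 16 were tested, 5 above 0 with ethanol in embryoid bodies, 10 below, 1 equal to 0 and none called, with a median of -0.05. SREBF1, the lipogenic factor, gave 0.45 ± 0.11 (limma adjusted p 0.118), and NR1H3, the oxysterol receptor that acts on ABCA1 and ABCG1, gave -0.38 ± 0.11 (adjusted p 0.138). FOXA2, a pioneer factor of endoderm, averaged 1072 with ethanol and 1096 without (-0.03 ± 0.26), against 83.2 in undifferentiated cells with ethanol and 78.5 in those without. At 0 mM FOXA2 was higher in embryoid bodies by 3.80 ± 0.26 (adjusted p 0.000225), among 4 factors called higher and 5 called lower. Of all tested genes 28% were called higher at that dose. FOXA1 and the nuclear receptor NR2F1, also among the 4, lay below the median of each undifferentiated array. Both passed the filter through the arrays of embryoid bodies alone, so a higher value there was a condition of their being tested. With the undifferentiated arrays at their medians, their signal in embryoid bodies at 0 mM was at least 1.82-fold higher for FOXA1 and at least 65.3-fold higher for NR2F1. The fit to the signals as read, not to these bounds, gave adjusted p of 0.00167 and 4.7e-06.

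Markers of yolk sac and fetal liver endoderm were read beside the members. Of 15 markers, none of them a member, 14 had a probe set and 11 were tested, and all 11 were above 0 in embryoid bodies with ethanol, with a median of 0.80 and 1 called, where 50.3% of all tested genes were above 0. That gene was AHSG, which encodes fetuin A, at 692 with ethanol and 226 without (1.61 ± 0.07, limma adjusted p 0.00956). AFP, the alpha-fetoprotein gene, averaged 9661 with ethanol and 6095 without (0.66 ± 0.22, adjusted p 0.173), and the fibrinogen gene FGB 3548 and 1660 (1.10 ± 0.42, adjusted p 0.209). The summed signal of the list was 27777 to 28538 in embryoid bodies with ethanol, 16541 to 16911 in those without, 738 to 1348 in undifferentiated cells with ethanol and 820 to 984 in those without. ALB, TTPA and SERPINC1 were under the array median on all 8 arrays. The part of endoderm cells in the ethanol values of the members was not tested.

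Lists for other cell types were read in the same way. The intestinal list summed to 1747 to 1826 in embryoid bodies with ethanol and 1466 to 1499 in those without, and CDX1, CDX2, FABP2, ALPI, SI and OLFM4, 6 of its 12 genes, were under the array median on all arrays. Of the 5 that were tested, 4 were above 0 in embryoid bodies with ethanol, and none was called. CDH17, which encodes liver-intestine cadherin, averaged 184 with ethanol and 75 without, a log2 change of 1.30 ± 0.17 (limma adjusted p 0.0624). Without ethanol it was under the median on both arrays, so the size of this change was not measured. In undifferentiated cells CDH17 averaged 126 with ethanol and 76.7 without (0.71 ± 0.17, adjusted p 0.489). In embryoid bodies 4 of the 5 were called higher than in undifferentiated cells at each dose, beside 28% of all tested genes at 0 mM and 29.2% at 20 mM. MEP1A and PRAP1, called at both doses, passed the filter through the arrays of embryoid bodies alone, so a higher value there was a condition of their being tested. TFF3 was called at 0 mM only and CDH17 at 20 mM only. Villin, VIL1, called at both doses, was higher by 2.09 ± 0.33 at 0 mM (adjusted p 0.00344). The macrophage list summed to 434 to 475 with ethanol and 343 to 381 without, and 5 of its 9 measured genes were under the median on all arrays, with CD14, CSF1R, PTPRC and TYROBP under it on every array of embryoid bodies. The mesenchyme list summed to 72613 to 73588 with ethanol and 47645 to 48999 without. Its 10 genes were all tested and all above 0 in embryoid bodies with ethanol, with a median of 0.66 and none called. The neural list had a median of 0.05, the pluripotent list -0.32 with 8 of 9 genes below 0, and the housekeeping list -0.13 with 8 of 9 below 0. The part of these lists in the values of the members was not tested.

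Likeness of pattern was measured as the root mean square distance between log2 profiles over the 8 arrays, each centred on its own mean, and the nearest genes outside the set are named as a description. Nearest to the mean profile of the 8 genes was PLAGL1, an imprinted zinc finger gene, at a distance of 0.108 (Pearson r 0.999), followed by COLEC12 (0.134), SEMA3C (0.143), CXCR4 (0.145) and TNC (0.146). PLAGL1 read 3715 and 3981 in embryoid bodies with ethanol, 2884 and 2630 in those without, 151 and 155 in undifferentiated cells with ethanol and 178 and 158 in those without. For APOB the nearest was the collagen gene COL3A1 (distance 0.341, r 0.995), and for MTTP it was MMRN1 (0.208, r 0.996), which was also among the 3 nearest to APOA4 (0.455). APOA1 was nearest to NR2F1 (0.202), APOA2 to ZIC1 (0.17), APOA4 to KCNJ16 (0.353), APOC3 to GDF10 (0.267), APOE to ANTKMT (0.0405) and APOM to EMID1 (0.109). Members were left out of this search. The 8 points of each profile share their libraries and the stage difference.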

How the data were processed

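RNA was measured on 8 Affymetrix arrays. The values deposited by the authors are log10 signals, as judged from their range of -1.46 to 4.61 and from a mean signal, with 2% trimmed at either end, of 500 to 500.1 on every array. RMA is named in the submitters' processing notes, without a version, but the values look like MAS 5 output scaled to a common target. The deposited log10 values were turned into log2 values by a constant factor, with no other normalisation. Of the probe sets, 41097 named 1 gene, 1801 several and 11777 none, and 62 were controls.

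One mean per group was fitted with limma 3.58.1 in R 4.3.3 (4 residual and 1.81 prior degrees of freedom, no intensity trend), with Benjamini-Hochberg adjustment over all 14079 tested genes or 25802 probe sets, and a call was an adjusted p under 0.05. Intervals are 95% intervals of that fit, and the number of arrays limits the precision. The fit was tested on simulated data. A gene under the array median on both arrays of a group has a bound there, the array median. P-values given beside such a bound come from the fit to the signals as read. Named genes are the 8 members, from each list up to 4 genes with the smallest p in a comparison and any transcription factor, and the nearest patterns. CLU, SAR1B, P4HB, CIDEB, APOA5 and the markers given as under the median were named after their values were seen. The members and lists were chosen with earlier results of these data known. Alternatives covered filters, probe sets, scalings, the variance model, the replicate block, fewer arrays and, chosen after seeing the data, cyclic loess.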

Additional observations from a re-analysis of the deposited data

How the results depend on the processing

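In embryoid bodies 10 genes were called for ethanol. That count was 2 with no filter, 473 with a filter at the 75th percentile, 1 with probe sets averaged per gene, 0 without _x_at and _s_at probe sets, 62 under quantile normalisation, 172 with 50 added to each signal, 959 with a trended and robust variance, 0 with the replicate block, 0 with only the 4 arrays of the stage and 0 to 4 with an array left out. Median centring called 4233, of which 162 were higher, against 6 higher of 10, and moved the median change of all tested genes to -0.27. It called 1 member, APOE, and turned APOA1 (-0.25) and APOA2 (-0.18). In undifferentiated cells 1 gene was called, against 2 with no filter, 0 with the filter at the 75th percentile, 3 without _x_at and _s_at probe sets, 2 under median centring, and 0 with 50 added, with a trended variance, with the replicate block or with only the arrays of the stage, and 0 to 34 with an array left out. The difference between the ethanol changes gave 0 calls, 13 at the 75th percentile, 31 with a trended variance and 0 to 10 with an array left out.

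No member was called for ethanol in undifferentiated cells, or for the difference, under any alternative run. In undifferentiated cells APOA4, APOC3, MTTP and the dim APOA1 probe set lay under the array medians, and APOB did on all but 1 array. Signs there turned without _x_at and _s_at probe sets (APOA1 0.43, APOA2 -0.05), with probe sets averaged (APOE -0.04), and under median centring (APOE -0.07, MTTP -0.12), quantile normalisation (MTTP -0.12), 50 added (MTTP -0.02) and cyclic loess (MTTP -0.07). The difference for APOA2 turned to 0.01, 0.10 and 0.06 with probe sets averaged, without _x_at and _s_at probe sets and under quantile normalisation. With an array left out, the ranges in undifferentiated cells were -1.01 to 0.78 for APOA4, -0.56 to 0.23 for APOB, -1.61 to 0.48 for APOC3, -0.10 to 0.23 for APOE, -0.30 to 0.23 for APOM and -0.53 to 0.56 for MTTP, and for the difference -0.22 to 0.05 for APOA2, -0.08 to 1.71 for APOA4 and -0.02 to 1.08 for MTTP. The causes were not tested.

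Of the stage calls, 3 members were called without _x_at and _s_at probe sets, against 8 at 0 mM and 7 at 20 mM, because 4 members then had no tested probe set and APOA1 rested on its dim one. APOE at 20 mM turned under median centring (-0.08) and was called in 8 alternatives. Median centring moved the median stage difference of all tested genes to -0.25 at 0 mM and -0.40 at 20 mM, with 2559 of 8193 and 2269 of 9065 calls higher, against 3949 of 7427 and 4114 of 7923. The letters of the replicates did not pair the arrays (correlations of like-lettered deviations -0.026 to 0.049), and the replicate block gave 7210 and 7787 stage calls. The number of arrays and dim signals in undifferentiated cells limit what the ethanol comparisons can show.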
